A study of Mus musculus with 7 samples.

Results

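The core circadian clock genes were followed in mouse sinoatrial node (SAN, the pacemaker tissue of the right atrium), taken 3 weeks after birth from strain Sv129. The 10 genes are Arntl, Clock and Npas2 (activators), Per1, Per2, Per3, Cry1 and Cry2 (repressors), and Nr1d1 and Dbp (output), picked by symbol from the 15965 genes analysed. All 10 had a value. They were chosen with results of these libraries in view, so their levels and ratios describe the pair and were not tested. The compared libraries are 1 control library of genotype Baf250af/f, that is, floxed for Baf250a (gene symbol Arid1a, which codes for part of the BAF chromatin remodeller), and 1 library of genotype Baf250af/f;Hcn4CreERT2, taken 6 days after tamoxifen. Hcn4CreERT2 is a tamoxifen-activated Cre recombinase driven from Hcn4, the gene of the main pacemaker channel, so both libraries carry the floxed alleles and the Cre library alone carries the recombinase. The sources used here do not say whether the control mice were given tamoxifen, how many mice were pooled, or at what hour of the day tissue was taken. The 5 libraries of the time series after tamoxifen (a control, 16, 20, 24 and 48 h) were not analysed here.

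In mammals the clock is a loop of transcription. Arntl (also called Bmal1) pairs with Clock or its paralogue Npas2, the pair binds E-boxes and switches on the Per and Cry genes, and Per and Cry proteins return to the nucleus to block the pair. A second loop runs through Nr1d1 (Rev-erb alpha), which the pair switches on and which represses Arntl at ROR elements, while Dbp is a transcription factor of the output that acts at D-boxes. In peripheral tissues, the heart among them, Arntl and Npas2 usually peak at the opposite time of day from Nr1d1, Dbp and the Per genes, and Cry1 trails the other repressors. Per and Cry transcripts therefore change with the hour even where nothing has been done to the animal.

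The promoters of the 4 members that differed at least 2-fold are shown first, because the loops are known to be wired through elements of these kinds. Each window runs from 250 bases before to 50 bases after a RefSeq transcription start in GRCm38.p6, read 5′ to 3′ on the gene's strand. Capitals mark a match, on either strand, to the E-box CACGTG, its variant CACGTT (the E-prime-box), the D-box TTANNTAA, the ROR element core TAGGTCA or TGGGTCA, or the cyclic AMP element TGACGTCA.
Arntl, chr7:113207261-113207560, plus strand: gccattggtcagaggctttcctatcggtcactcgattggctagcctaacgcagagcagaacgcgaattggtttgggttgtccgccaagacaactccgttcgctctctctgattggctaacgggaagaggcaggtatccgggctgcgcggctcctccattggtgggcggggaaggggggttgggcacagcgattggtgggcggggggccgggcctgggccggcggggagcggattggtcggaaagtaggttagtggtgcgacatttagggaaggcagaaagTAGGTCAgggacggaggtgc
Cry1, chr10:85185005-85185304, minus strand: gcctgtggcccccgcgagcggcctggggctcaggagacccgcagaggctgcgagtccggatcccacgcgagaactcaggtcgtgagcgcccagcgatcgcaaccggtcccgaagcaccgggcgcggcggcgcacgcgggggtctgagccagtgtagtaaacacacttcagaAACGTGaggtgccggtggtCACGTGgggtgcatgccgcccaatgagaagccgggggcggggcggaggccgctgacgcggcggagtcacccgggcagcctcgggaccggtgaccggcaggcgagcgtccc
Per3, chr4:151044616-151044915, minus strand: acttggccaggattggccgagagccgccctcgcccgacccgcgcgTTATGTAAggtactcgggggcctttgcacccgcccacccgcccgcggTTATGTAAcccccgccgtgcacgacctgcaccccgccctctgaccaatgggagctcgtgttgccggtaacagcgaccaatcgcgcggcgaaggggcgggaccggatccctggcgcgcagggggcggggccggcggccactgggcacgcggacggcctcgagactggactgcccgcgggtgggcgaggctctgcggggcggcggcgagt
Nr1d1, chr11:98775328-98775627, minus strand: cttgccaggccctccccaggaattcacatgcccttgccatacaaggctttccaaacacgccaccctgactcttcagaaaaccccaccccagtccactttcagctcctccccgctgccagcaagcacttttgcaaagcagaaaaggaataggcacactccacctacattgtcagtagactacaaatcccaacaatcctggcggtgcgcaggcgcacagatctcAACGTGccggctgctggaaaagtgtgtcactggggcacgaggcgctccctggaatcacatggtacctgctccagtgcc
The Arntl window holds 1 exact match to a ROR element core, at bases 31 to 37 after the start. The overlapping window of its other listed start holds no exact match to any of the motifs. Near matches were not counted, such as TAGGTTA, which lies in both windows and differs from TAGGTCA in 1 base. Cry1 has an E-prime-box at -79 to -74 and an E-box at -60 to -55. The Per3 window has a pair of D-boxes, at -205 to -198 and -158 to -151, both reading TTATGTAA, and Nr1d1 has an E-prime-box at -28 to -23. Of the 9 members with a window, Per1 also held an E-box (-166 to -161) and Cry2 an E-prime-box (also -166 to -161). The other window of Per1 held none of the motifs searched, nor did any window of Clock, Npas2 or Dbp. Of 27025 genes with windows, 8.09% held the E-box in any window, 5.44% the E-prime-box, 6.93% the D-box and 7.35% a ROR element core. The cyclic AMP element, held by 2.03% of those genes, was in no member. These are matches of letters, and binding was not measured.

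Levels are in FPKM (sequenced fragments scaled by transcript length and by library size), so they can be set side by side between genes. Ratios are log2 of FPKM + 1, Cre over control, and higher or lower below means by 2-fold or more on that scale where a count is given. Values without and with Cre are those of the control and the Cre library. With 1 library per genotype there is no replicate and no test of any difference. In the control library the order of levels was Dbp, Nr1d1, Arntl, Cry1, Per1, Cry2, Per3, Clock, Per2 and Npas2. In the Cre library it was Nr1d1, Dbp, Per1, Per3, Cry2, Clock, Per2, Cry1, Arntl and Npas2. Arntl thus went from 3rd to 9th place and Cry1 from 4th to 8th, and which neighbours in these orders differ cannot be said without replicates.

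**Figure D1:**
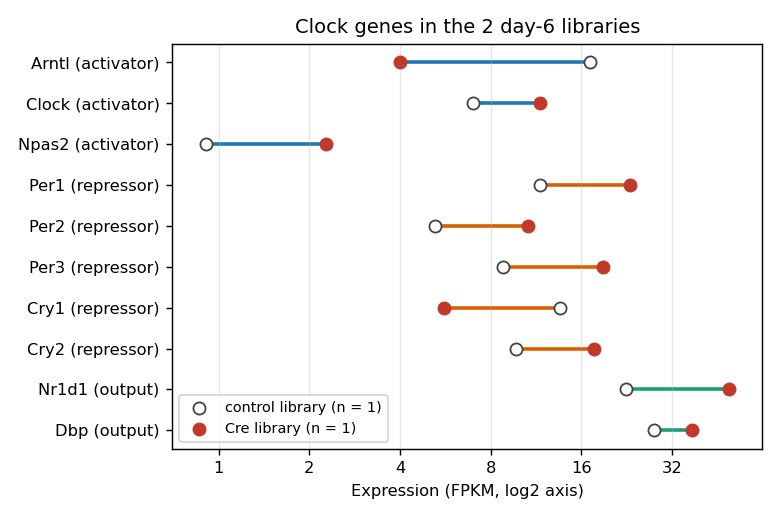
Expression of the 10 clock genes (FPKM, log2 axis) in the control library (open circles) and the Cre library (filled circles), 1 library each, joined by a line coloured by arm. Arntl and Cry1 are the genes whose Cre value lies to the left of the control value.

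The activators did not differ as a block. Arntl, the partner that the loop cannot run without, had 17.1 FPKM without Cre and 4.01 FPKM with Cre, 4.27 times less. Its log2 ratio of -1.85 was the lowest of the 10 and the 591st of the 13407 genes whose mean reached 1 FPKM, counted from the lowest. Arntl (NM_001243048) is listed on mm9 chromosome 7 from 120350978 to 120457640. Clock, which pairs with Arntl, had 6.97 FPKM without Cre and 11.6 FPKM with Cre, a log2 ratio of 0.66 in the other direction as deposited and of -0.37 when centred on cardiomyocyte genes (chromosome 5, 76641201 to 76733573). Npas2, which can stand in for Clock, was the weakest member, with 0.904 FPKM without Cre and 2.28 FPKM with Cre (chromosome 1, 39251116 to 39420085). Its log2 ratio was 0.78 as deposited and -0.25 with that centring, and it reached the minimum mean of 1 FPKM through the Cre library only. The activators' median was 0.66, between a lowest of -1.85 and a highest of 0.78.

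Among the repressors, the 3 Per genes stood above equal expression by nearly the same factor as deposited, and between -0.13 and -0.01 when centred on cardiomyocyte genes. Per1 had 11.7 FPKM without Cre and 23.2 FPKM with Cre, a log2 ratio of 0.93 (chromosome 11, 68912457 to 68923459). Per2 had 5.23 and 10.7 FPKM, a log2 ratio of 0.90 (chromosome 1, 93312558 to 93355905). Per3 had 8.80 and 18.9 FPKM, a log2 ratio of 1.02 (chromosome 4, 150377763 to 150418731). Their proportions to each other hardly differed between the libraries, since Per2 stood at 0.446 times Per1 in the control and 0.459 times in the Cre library, and Per3 at 0.752 and 0.812 times. Per3 lay just inside the 2-fold rule and Per1 and Per2 just outside it.

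The cryptochromes, which carry most of the repression of the Arntl pair, split. Cry1 had 13.6 FPKM without Cre and 5.59 FPKM with Cre, 2.44 times less, a log2 ratio of -1.15 (chromosome 10, 84594444 to 84647799). Cry2 had 9.71 and 17.7 FPKM, a log2 ratio of 0.80 as deposited and -0.23 with that centring (chromosome 2, 92243803 to 92274226). Cry1 was therefore the more abundant of the paralogues in the control library and Cry2 in the Cre library, with Cry2 at 0.713 and 3.16 times Cry1. The locus listed for Cry2 is shared with D930015M05Rik, a weakly expressed row at 0.593 and 1.18 FPKM, and reads there may be shared. The repressors' median was 0.90, with 4 of 5 above equal expression.

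Both output genes stood above equal expression as deposited, by different amounts, and when centred on cardiomyocyte genes Nr1d1 was at 0.06 and Dbp at -0.62. Nr1d1, the repressor of Arntl, had 22.6 FPKM without Cre and 49.4 FPKM with Cre, a log2 ratio of 1.10 that was the highest of the members and that 4.74% of measured genes exceeded (chromosome 11, 98629248 to 98636556). Dbp had 27.8 and 37.3 FPKM, a log2 ratio of 0.41 (chromosome 7, 52960616 to 52973372), and 23.7% of measured genes had a higher ratio. Dbp stood at 1.23 times Nr1d1 in the control and 0.755 times in the Cre library. Its listed locus is shared with Sphk2, a sphingosine kinase gene at 13.1 and 13.5 FPKM, so its value is uncertain where reads overlap both genes. The median of the output pair was 0.75.

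In all, 2 of the 10 clock genes (Per3 and Nr1d1) were higher by 2-fold or more with Cre, against 6.08% of all measured genes, and 2 (Arntl and Cry1) were lower by as much, against 10.4%. The other 6 lay between, all above equal expression, so that 8 of 10 were above it, against 46.0% of all measured genes. The median over the members was 0.79 and that of all measured genes -0.07 (quartiles -0.52 and 0.38). In the authors' deposited table none of the 10 was called significant, where 0.564% of genes were. The smallest p-value of the 10 in the authors' deposited table was that of Arntl, at 0.0308 with a q-value of 0.630, and the other 9 had p-values of 0.150 (Cry1) or more and q-values of 0.999. Those p-values compare the libraries and not the genotypes.

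**Figure D2:**
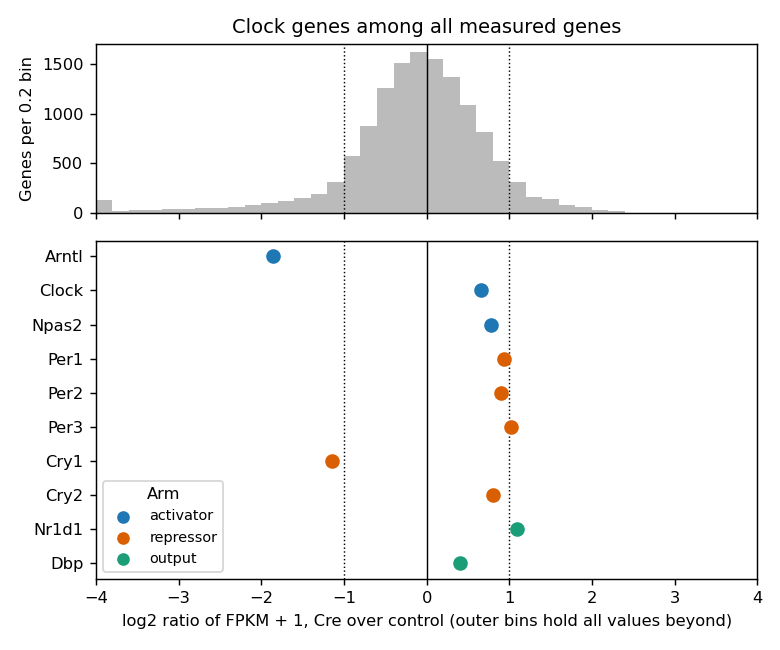
Upper panel, number of measured genes per bin of 0.2 in the log2 ratio of FPKM + 1 (Cre over control); lower panel, the ratio of each clock gene, coloured by arm, with dotted lines at 2-fold. Arntl (-1.85) and Cry1 (-1.15) lie left of the lower line, Per3 (1.02) and Nr1d1 (1.10) at or right of the upper line, and the other 6 between 0.41 and 0.93.

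The levels of the members relative to Arntl within each library do not rest on how the libraries were scaled to each other. They can still differ with the makeup of the tissue. Marker lists of cell types differed between the libraries (below), and their part in these levels was not tested. In the control library Nr1d1 and Dbp stood above Arntl, at 1.32 and 1.63 times its FPKM, and the other members stood below it. Per1, Per2 and Per3 were at 0.685, 0.306 and 0.514 times Arntl, Clock at 0.408 times and Npas2 at 0.0529 times. In the Cre library 8 of the other 9 members stood above Arntl, and Npas2 alone remained below it, at 0.568 times. Nr1d1 reached 12.3 times and Dbp 9.31 times Arntl there, Per1 5.79 times, Per3 4.70 times, Cry2 4.41 times, Clock 2.90 times and Per2 2.66 times. Cry1 was the member whose relation to Arntl differed least, at 0.796 times in the control and 1.39 times in the Cre library. On the scale of log2(FPKM + 1), the step relative to Arntl from control to Cre was 0.70 for Cry1. For the other 8 it lay between 2.26 (Dbp) and 2.95 (Nr1d1). Each step is the member's own log2 ratio minus that of Arntl. All of them therefore share the same Arntl value and are not separate results.

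**Figure D3:**
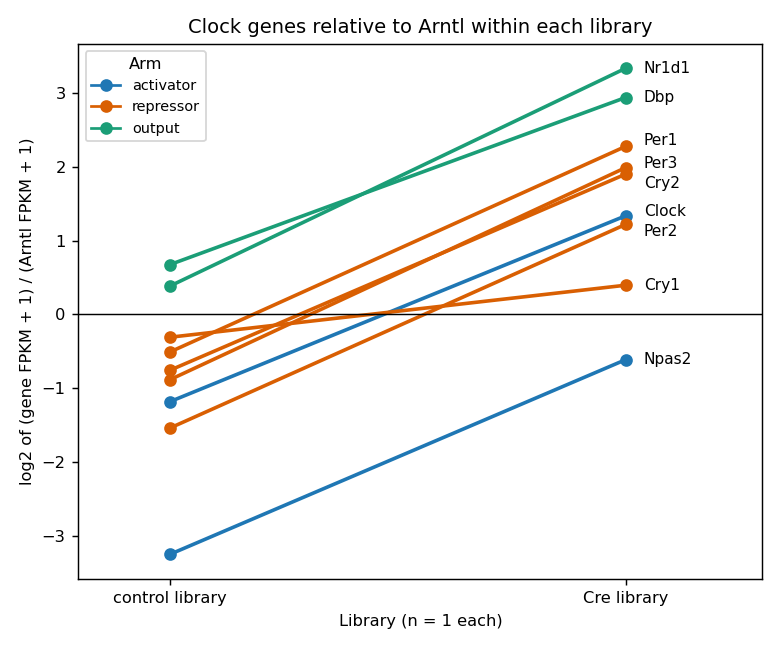
Level of each clock gene relative to Arntl inside the same library, as log2 of (FPKM + 1) over (Arntl FPKM + 1), in the control library (left) and the Cre library (right), coloured by arm. In the control library 7 of 9 lines start below 0, and in the Cre library 8 of 9 end above it, with Npas2 the exception at -0.61.

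A clock that runs the same loop at another time of day would move its members by phase rather than by arm, with Arntl, Npas2, Clock and the late Cry1 on one side and Nr1d1, Dbp, the Per genes and Cry2 on the other. This grouping is textbook background and was written down after the values had been seen. By it, 8 of 10 members lay on the side that a control library nearer to the Arntl peak would give, or 5 of 10 when centred on cardiomyocyte genes. As deposited, all 6 members of the day and evening side were above equal expression, and their median log2 ratio was 0.92. The smallest of the 6 was Dbp at 0.41, which was at -0.05 when centred on the fibroblast and endothelium lists. On the night and morning side Arntl and Cry1 were below equal expression as deposited, and Clock and Npas2 were not. The members thus matched a shift of phase in part on the deposited scale, where Npas2, which usually runs with Arntl, lay on the other side of equal expression from it. The value of Npas2 is weak, at 0.904 FPKM without Cre, and passed the minimum through the Cre library only. Centred on cardiomyocyte genes Npas2 was at -0.25, on a scale where 5.61% of all measured genes were above equal expression. Clock too lay above equal expression as deposited, at 0.66, and was at -0.37 when centred on cardiomyocyte genes. Members that matched have limits as well, since the listed loci of Cry2 and Dbp are each shared with another row. A difference in the hour of sampling cannot be told apart here from genotype, sex or the makeup of the tissue.

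Of 10 listed second-loop genes 9 were measured, with 0 at least 2-fold higher and 1 lower, against 6.08% and 10.4% of all measured genes. Their median was 0.62, and 8 of 9 were above equal expression (46.0% of all measured genes were). Centred on cardiomyocyte genes, 0 of the 9 were above it and the median was -0.42. Nr1d2 (Rev-erb beta), the paralogue of Nr1d1, had 36.8 FPKM without Cre and 56.9 FPKM with Cre. The Dbp relatives Tef and Hlf had 39.3 and 7.39 FPKM without Cre and 67.1 and 14.7 FPKM with Cre, log2 ratios of 0.76 and 0.90. These are larger than that of Dbp itself. Nfil3, which opposes them at D-boxes and usually runs near Arntl, had 2.48 and 3.10 FPKM, a log2 ratio of 0.24. Rora, an activator at ROR elements, had 3.01 and 6.14 FPKM. Bhlhe40 and Bhlhe41, E-box repressors, had 13.4 and 4.79 FPKM without Cre and 24.8 and 5.09 FPKM with Cre. Ciart, a repressor of the Arntl pair listed as Gm129, had 4.36 and 6.92 FPKM. Nr1d2, Tef, Hlf, Ciart and Nfil3 were added to the phase grouping, and the other second-loop genes were not. As deposited, 10 of 10 genes of its day and evening side were above equal expression, and 3 of 5 of the other side. The share over all measured genes was 46.0%. Of these genes 6 and 4 are the members counted before. The grouping was also written down after the values had been seen, so these counts are not separate results. Centred on cardiomyocyte genes these counts were 1 of 10 and 0 of 5, against 5.61% of all measured genes.

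The protein turnover list held genes that modify or degrade clock proteins, together with Timeless and Tipin, which are not such enzymes. Of its 10 measured genes 0 were higher and 2 were lower, against 6.08% and 10.4% of measured genes. All its measured kinase, ubiquitin ligase and deubiquitinase genes lay within 2-fold. The median of the list was -0.31. The lower ones were Timeless (9.22 and 1.45 FPKM) and Tipin (39.9 and 17.5 FPKM), partners at replication forks that belong to dividing cells as well. Both lay in the direction of the cell cycle genes given below, whose part in them was not tested. The casein kinases Csnk1d and Csnk1e, which mark Per proteins for decay, had 34.7 and 22.5 FPKM without Cre and 29.1 and 14.8 FPKM with Cre. Usp2, a deubiquitinase with a strong rhythm in many tissues, had 11.1 and 20.8 FPKM, a log2 ratio of 0.85.

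Of 12 genes known to be rhythmic in heart or many tissues 1 was higher and 0 lower, against 6.08% and 10.4% of measured genes. Their median was 0.29. That median turned to -0.75 when centred on cardiomyocyte genes and to -0.17 when centred on the fibroblast and endothelium lists. The higher one was Por, the electron donor of cytochrome P450 enzymes, at 45.8 and 120.2 FPKM. Por is also abundant in airway secretory cells, whose genes were higher in the same library, and their part in it was not tested. Klf15, which sets the rhythm of Kcnip2 in heart, had 20.4 and 41.0 FPKM, and Kcnip2, a subunit of potassium channels, had 5.76 and 9.74 FPKM. Coq10b was nearest to equal expression, at 33.1 and 31.8 FPKM, and Wee1, a kinase of the cell cycle that the Arntl pair drives, had 10.8 and 7.18 FPKM.

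Per1 also responds to glucocorticoids and to the signals that raise immediate early genes, so both lists are given beside it. The lists overlap, since Klf15 and Pdk4 are also in the rhythmic list above and Dusp1 is in both lists given here. Over all measured genes 6.08% were higher and 10.4% lower. Of 10 glucocorticoid-response genes 2 were higher and 1 was lower (median 0.50). Zbtb16 was at 5.84 and 26.4 FPKM, Klf9 at 24.4 and 54.8 FPKM and Fkbp5 at 52.0 and 23.1 FPKM. Errfi1 was nearest to equal expression, at 16.3 and 14.9 FPKM. Of 9 measured immediate early genes 0 were higher and 3 were lower (median 0.00). These were Btg2 (108 and 12.8 FPKM), Egr2 (2.98 and 0.367 FPKM) and Nr4a1 (12.3 and 4.04 FPKM), which T cells also express, and Atf3 was at 2.73 FPKM in both libraries. Their part in the Per genes was not tested.

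Marker lists of other cell types and sex-linked genes differed between the libraries, and in bulk tissue fewer cells of a type and less RNA per cell cannot be told apart. All 16 T cell and thymus genes were at least 2-fold lower in the Cre library, their summed level going from 3364 to 10.3 FPKM, with Rag1 and Cd8a at 0.832 and 0.521 FPKM with Cre. All 12 cell cycle genes were lower too, from 606 to 31.5 FPKM in sum. Arntl and Cry1 differed in the same direction as these lists, and the part of T cells in them was not tested. All 10 lung and airway genes were higher, from 4381 to 19356 FPKM in sum, and 5 of 10 cardiomyocyte genes, from 14987 to 21893 FPKM, the direction of the other 8 clock genes, and their part was not tested either. Of 8 fibroblast genes 1 was higher, of 8 endothelial genes 0 and of 5 measured neuron genes 2, with 0 lower in any of these lists. Over all measured genes the shares were 6.08% higher and 10.4% lower. Of the 8 sinoatrial markers 6 were measured, all above equal expression (median 0.35), with 1 higher and 0 lower. The higher one was Cacna1g, a T-type calcium channel, at 1.57 and 4.37 FPKM, and Tbx3 had a log2 ratio of 0.85. All 8 were weak, with a summed level of 13.5 and 21.5 FPKM. Hcn4 fell short of the minimum, at 0.605 FPKM without Cre and 0.719 FPKM with Cre, and Tbx18 was the strongest at 4.83 and 7.03 FPKM. Xist was at 0.379 FPKM without Cre and 93.2 FPKM with Cre, and Eif2s3y at 85.8 and 0.118 FPKM, so by these genes the libraries also differed in sex. Arid1a itself had 34.9 and 12.3 FPKM, a value over the whole gene, floxed part or not.

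The scale on which the libraries are compared decides which members pass 2-fold. Over all measured genes 815 were higher and 1396 lower as deposited (36.9% higher). With the same upper quartile 1358 were higher and 1105 lower (55.1%), and the median log2 ratio of all genes moved from -0.07 to 0.13. The same median gave 54.4%. On the upper-quartile scale 5 clock genes were higher (Per1, Per2, Per3, Cry2 and Nr1d1) and Arntl alone was lower, with Cry1 at -0.96. Centred on the cardiomyocyte list, whose own median was 1.03, Arntl and Cry1 stood at -2.89 and -2.18, the Per genes between -0.13 and -0.01, and Nr1d1 alone above 0, at 0.06. Of all genes 0.65% of those past 2-fold were higher on that scale, and 8.33% when centred on the fibroblast and endothelium lists. Arntl and Cry1 were below equal expression under every pseudocount and scaling tried.

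**Figure D4:**
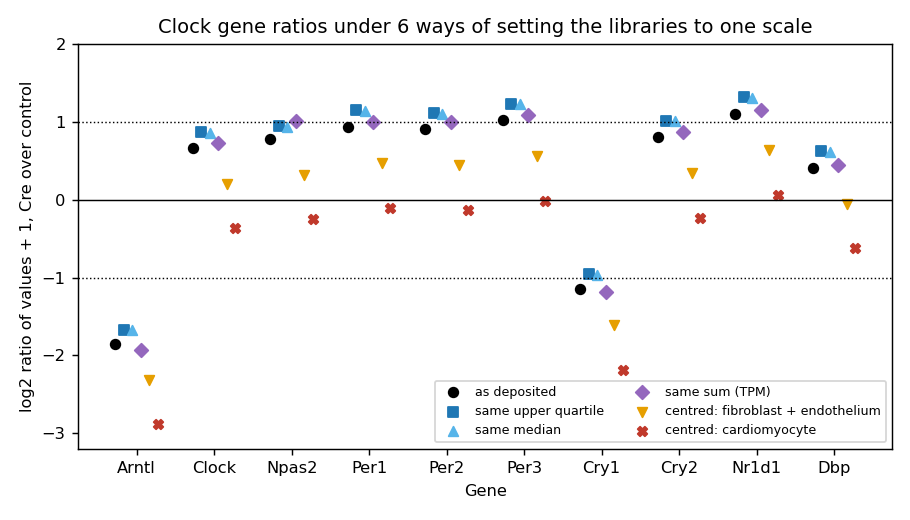
The log2 ratio (Cre over control, values + 1) of each clock gene under 6 ways of setting the libraries to one scale, with dotted lines at 2-fold. Arntl and Cry1 are below 0 under all of them, and the other 8 lie above 0 as deposited but at or below 0.06 when centred on cardiomyocyte genes.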

How the data were processed

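Poly-A RNA was sequenced from sinoatrial node, and 2 of the 7 libraries (control and Cre, day 6) were analysed here. The submitters' processing notes name TopHat, Bowtie, Cufflinks and the build mm9. Tool versions, the annotation and the scaling of the libraries were not given in the sources used here. Values were taken as FPKM made by the authors, from the Cufflinks layout of the columns. A log2 fold change, a score as test statistic, a p-value and a q-value of the authors are deposited beside them, and that log2 value equals the log2 ratio of the FPKM values within 1.38e-05.

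Of 15967 rows, 2 with an unfinished comparison were left out, which leaves 15965 genes. A further 12 small-RNA genes were left out of the 13407 genes whose mean reached 1 FPKM. All 10 clock genes passed that minimum. FPKM summed to 497407 (control) and 485189 (Cre). Read depth is unknown: the most frequent ratio of the libraries' values was 0.824, in 32 genes, which would make the Cre library 1.21 times as deep if it stands for 1 read against 1, but the ratio 1.65 was nearly as frequent (29 genes). No counting interval is therefore given.

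Log2 ratios used a pseudocount of 1, in Python 3.11.15 with pandas 2.3.3 and numpy 2.4.6. A run on control values with set changes and no added noise checked the arithmetic only. No test was run, with 1 library per genotype. The members and lists were chosen with earlier results of these data known. Named were all members, all measured second-loop genes, and of the other clock, glucocorticoid and immediate early lists each gene past 2-fold and the gene nearest to equal expression. The values of 2 genes that this rule names are not reported here, though the counts and medians of their lists include them. A few more genes (Csnk1d, Csnk1e, Usp2, Klf15, Kcnip2, Wee1) were named after their values were seen, as were the examples from the cell type lists. Promoter sequences are from RefSeq, GRCm38.p6, matched by symbol for 9 of 10 members, and coordinates of genes are those of the deposited table in mm9. Alternatives were pseudocounts of 0.1 and 5, a minimum of 5 FPKM or none, a 1.5-fold rule, and other scalings.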

Additional observations from a re-analysis of the deposited data

How the results depend on the processing

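No paired analysis was possible because there is 1 library per genotype. Of 280 recomputed values 226 kept their direction and their side of 2-fold (or, for counts, stayed within 1.5 times). A further 14 reversed and the rest crossed 2-fold or moved. Centring subtracts the same number from every ratio, so it cannot change the steps relative to Arntl or the gap between output and activator medians. Other scalings can change those steps only through the pseudocount. Such values are counted among the 226, so that count overstates how well the results held. Read depth is unknown, so which of the weaker values it limits cannot be given.

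A pseudocount of 0.1 gave 4 clock members at least 2-fold higher and 3 genes of the other clock lists (31 measured genes of second loop, protein turnover and rhythmic output), with 9.41% of all genes higher. A pseudocount of 5 gave 0 members higher and 1 lower, with 1.78% and 6.0% of all genes. With the same upper quartile, 5 members were higher and 1 lower, 8 genes of the other lists were higher, and the repressor median was 1.11, with 1358 of 13538 genes higher and 8.16% lower. The same median gave 5, 1, 8 and 1.102 for these quantities, with 9.8% and 8.22% of all genes, and the same sum gave 2 higher genes of the other lists, with 8.37%. The 1.5-fold rule gave 7 members and 11 other genes higher, where 16.6% of all genes were.

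Centred on the cardiomyocyte list, 0 members were higher, 1 was above equal expression and 5 lay on the sides of the phase grouping, and the other lists had 0 genes higher and 14 of 31 lower, where 0.365% of all genes were higher and 55.8% lower. The arm medians turned to -0.37 (activators), -0.13 (repressors) and -0.28 (output), and the list medians were -0.42 (second loop), -0.75 (rhythmic output) and -1.34 (protein turnover). Log2 ratios that turned were those of Clock (-0.37), Npas2 (-0.25), Per1 (-0.10), Per2 (-0.13), Per3 (-0.015), Cry2 (-0.23) and Dbp (-0.62). Centred on the fibroblast and endothelium lists, 0 members and 0 genes of the other lists were higher (2.17% of all genes were), Dbp stood at -0.051, and the rhythmic output median was -0.17. These turns follow from subtracting the median of a list that was itself higher in the Cre library. An equal sum over genes within 2-fold, chosen after seeing the data, moved none of these results across 2-fold.

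The step relative to Arntl within a library was between 1.596 and 3.31 for the 8 members other than Cry1, and between 0.48 and 0.80 for Cry1, under all pseudocounts and scalings run.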
